A study of Mus musculus with 18 samples.

Results

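Expression of 9 genes was followed across the 18 libraries of a mouse erythroid progenitor study: the genes of 4 surface antigens used in the sort (Slamf1 for CD150, Eng for CD105, Itga2b for CD41, and Fcgr3 and Fcgr2b for CD16/32) and 4 platelet genes (Gp5, Gp9, Gp1bb and Pf4). The genes were chosen by symbol, and all 9 were found among the 21967 genes of the deposited count table. RNA was sequenced from CFU-E and PreCFU-E, 2 successive erythroid progenitor populations sorted from bone marrow cells enriched for c-Kit, with 5000 to 10000 cells per library. The mice carried alleles of Scf (gene symbol Kitl), which encodes stem cell factor, the ligand of the receptor KIT. In Scf KO/FL;Lepr-Cre mice, called Lepr-Cre mice from here on, a null copy was combined with a floxed copy and with Cre expressed from the leptin receptor locus, which acts in bone marrow stromal cells and not in the sorted progenitors. Scf KO/FL mice carried the null copy over an undeleted floxed copy, and Scf FL/FL mice carried floxed copies alone. There were 3 mice of each genotype, lettered A, B and C in the labels, and each mouse gave a CFU-E and a PreCFU-E library. In each genotype mouse B was female and mice A and C were male; the labels give no ages.

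Platelets are shed by megakaryocytes, which share a bipotent precursor with the erythroid lineage. On platelets, glycoprotein V (Gp5) associates with glycoproteins Ib alpha, Ib beta (Gp1bb) and IX (Gp9) in the receptor for von Willebrand factor, integrin alpha IIb (Itga2b) pairs with integrin beta 3 in the fibrinogen receptor, and platelet factor 4 (Pf4) is a chemokine stored in alpha granules. In the sorting scheme usual for these progenitors, CD150 marks PreCFU-E and is lost in CFU-E, CD105 is carried by both, and cells positive for CD41 or CD16/32 are set aside. The labels name the antibodies but not the gates, and the antibodies read protein where the libraries read RNA, so the levels of the 5 sort genes between populations are given as a description, with no test.

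Total counts ran from 3541066 to 9389122 per library and 10782 to 13536 genes were detected, so that 1 count stood for 0.103 to 0.276 CPM (counts relative to TMM-adjusted library totals) and 3 counts, the floor used for a count of 0, for 0.310 to 0.829 CPM. Kit, the receptor of the deleted ligand, averaged 246 ± 46.8 CPM in Lepr-Cre and 413 ± 55.1 CPM in FL/FL CFU-E, and 436 ± 54.8 CPM in Lepr-Cre and 807 ± 62.0 CPM in FL/FL PreCFU-E (SD, n = 3 mice each), and fell in both (adjusted p = 0.00539 and 4.58e-05, edgeR's quasi-likelihood test). Kitl itself had no count in 16 of the 18 libraries, and its deletion in stromal cells cannot be checked in them. Erythroid genes separated the labelled populations: 9 of 12 tested erythroid markers rose in CFU-E against PreCFU-E of Lepr-Cre mice, 11 of 12 in KO/FL mice and 11 of 12 in FL/FL mice, and none fell. The shares of all tested genes called in either direction were 7.25%, 14.1% and 18.3% in these comparisons. Intervals and floors cover counting error only and leave out the spread between mice. The labels mention no molecular identifiers, so copies of the same molecule could not be told apart in the counts.

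Levels among the 9 genes spanned several orders of magnitude when counts were divided by exon length (CPM per kilobase of exon, GENCODE M21 annotation). In Lepr-Cre CFU-E, Eng averaged 42.1 ± 4.32, Gp9 2.41 ± 3.24, Gp5 1.37 ± 1.13, Pf4 0.244 ± 0.215, Fcgr3 0.196 ± 0.340, Itga2b 0.160 ± 0.0778, Slamf1 0.0633 ± 0.110 and Fcgr2b 0.0340 ± 0.0589 CPM per kilobase (SD, n = 3), and Gp1bb had no count. In FL/FL PreCFU-E, Eng averaged 35.9 ± 3.19, Gp5 12.9 ± 2.12, Itga2b 1.45 ± 0.652, Slamf1 0.676 ± 0.581, Gp9 0.503 ± 0.186, Pf4 0.205 ± 0.355 and Fcgr2b 0.0873 ± 0.0765 CPM per kilobase, and Fcgr3 and Gp1bb had no count. Eng stood first in all 6 groups, and Gp5 followed it in 5 of them. In Lepr-Cre CFU-E, Gp9 and Gp5 did not differ beyond their SDs. Of the 9 genes, 5 passed the filter on low counts over all 18 libraries (Slamf1, Eng, Itga2b, Gp5 and Gp9), 4 in the 9 CFU-E libraries (Eng, Itga2b, Gp5 and Gp9) and 4 in the 9 PreCFU-E libraries (Slamf1, Eng, Itga2b and Gp5).

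**Figure D1:**
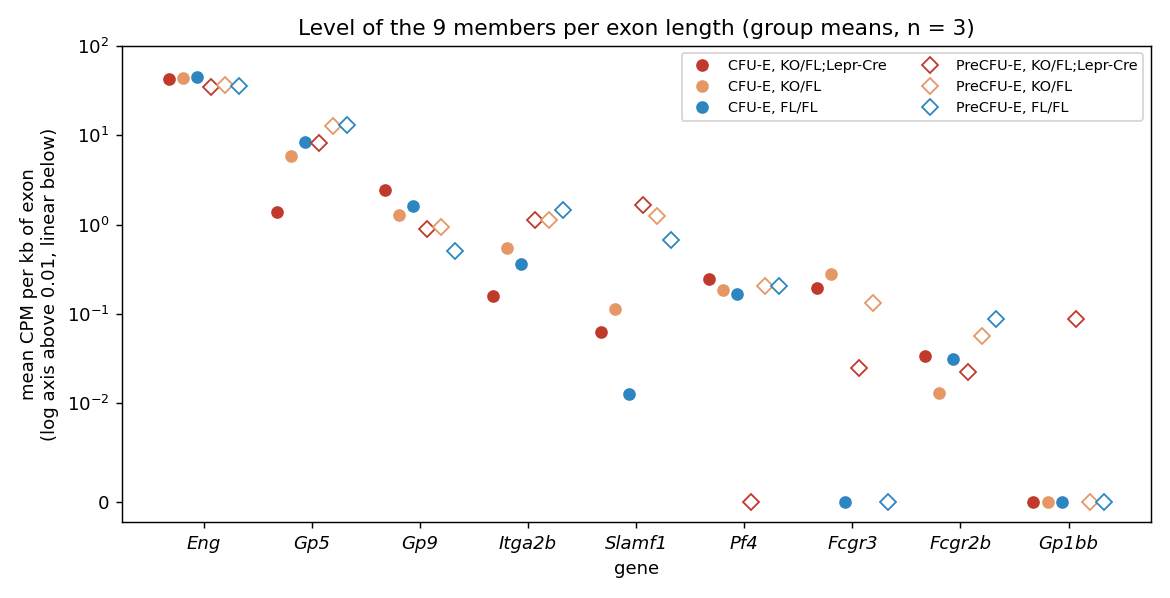
Mean level of each of the 9 genes per kilobase of exon in the 6 groups (n = 3 libraries each), on an axis that is logarithmic above 0.01 and linear below. Filled circles are CFU-E and open diamonds PreCFU-E. Eng lies above 34 CPM per kilobase in every group, Gp5 is at 1.37 in Lepr-Cre CFU-E and at 5.85 or more in the other 5 groups, and Gp1bb has a value in 1 group.

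Gp5 was the member that changed with genotype. In CFU-E it had 1.42, 5.86 and 1.75 CPM in Lepr-Cre mice A, B and C, 10.9, 14 and 13.6 CPM in KO/FL mice and 16.5, 21.9 and 16.5 CPM in FL/FL mice, from 12 to 39, 95 to 124 and 92 to 187 counts per library. The 3 Lepr-Cre libraries lay below all 6 others, and every KO/FL library also lay below every FL/FL library. Gp5 fell in Lepr-Cre against FL/FL CFU-E, with a log2 fold change of -2.61 (SE 0.43, adjusted p = 0.000703, edgeR's quasi-likelihood test with Benjamini-Hochberg adjustment over 10192 genes). It also fell against KO/FL CFU-E, by -2.10 on the log2 scale (SE 0.42, adjusted p = 0.0161 in edgeR's test). The KO/FL and FL/FL libraries did not differ past the threshold (log2 fold change -0.51, SE 0.38, adjusted p = 1 in edgeR's test). These comparisons share libraries and are not independent of each other.

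Gp5 was 1 of 4 tested members called in Lepr-Cre against FL/FL CFU-E, where 4.83% of all tested genes were called and 2.75% were called lower. It was likewise 1 of 4 against KO/FL CFU-E, where 1.01% of tested genes were called and 0.716% were called lower. Groups that did not overlap, as for Gp5, were found for 22.2% of tested genes in the first comparison and 17.2% in the second. Without the Lepr-Cre B library the log2 fold change of Gp5 was -3.52 against FL/FL (adjusted p = 4.88e-05) and -3.02 against KO/FL (adjusted p = 0.000621, edgeR). The call against KO/FL was lost without KO/FL B (adjusted p = 0.0880), without Lepr-Cre A (0.0629) or without Lepr-Cre C (0.0616), all by edgeR's test. In bulk libraries, fewer cells that express a gene and less RNA per cell cannot be told apart.

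In PreCFU-E, Gp5 had 16.2, 17.8 and 20.2 CPM in Lepr-Cre mice, 23.8, 36.3 and 23.6 CPM in KO/FL mice and 25.6, 33.7 and 25.7 CPM in FL/FL mice. The Lepr-Cre libraries again lay below all 6 others, while the KO/FL and FL/FL libraries overlapped. The log2 fold change was -0.64 (SE 0.24) in Lepr-Cre against FL/FL and -0.64 (SE 0.24) against KO/FL, and neither passed the threshold in edgeR's test (adjusted p = 0.113 and 0.201). In a fit blocked on mouse letter the first comparison did pass (log2 fold change -0.63, adjusted p = 0.0425 in edgeR's test). Without a block, none of the 4 members tested in PreCFU-E was called in Lepr-Cre against FL/FL or KO/FL mice. In these comparisons 6.13% and 2.18% of all tested genes were called, and 3.24% were called lower in the first. With mouse letter as a block, Gp5 and Slamf1 were both called in the first. The letters met the pairing rule given under the processing there, so the absence of a call depends on leaving out that block. The fit blocked on mouse letter called 1586 genes in Lepr-Cre against FL/FL PreCFU-E, against 632 without the block. Libraries did not overlap for 25.2% of tested genes in the first of these comparisons and 18.6% in the second.

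**Figure D2:**
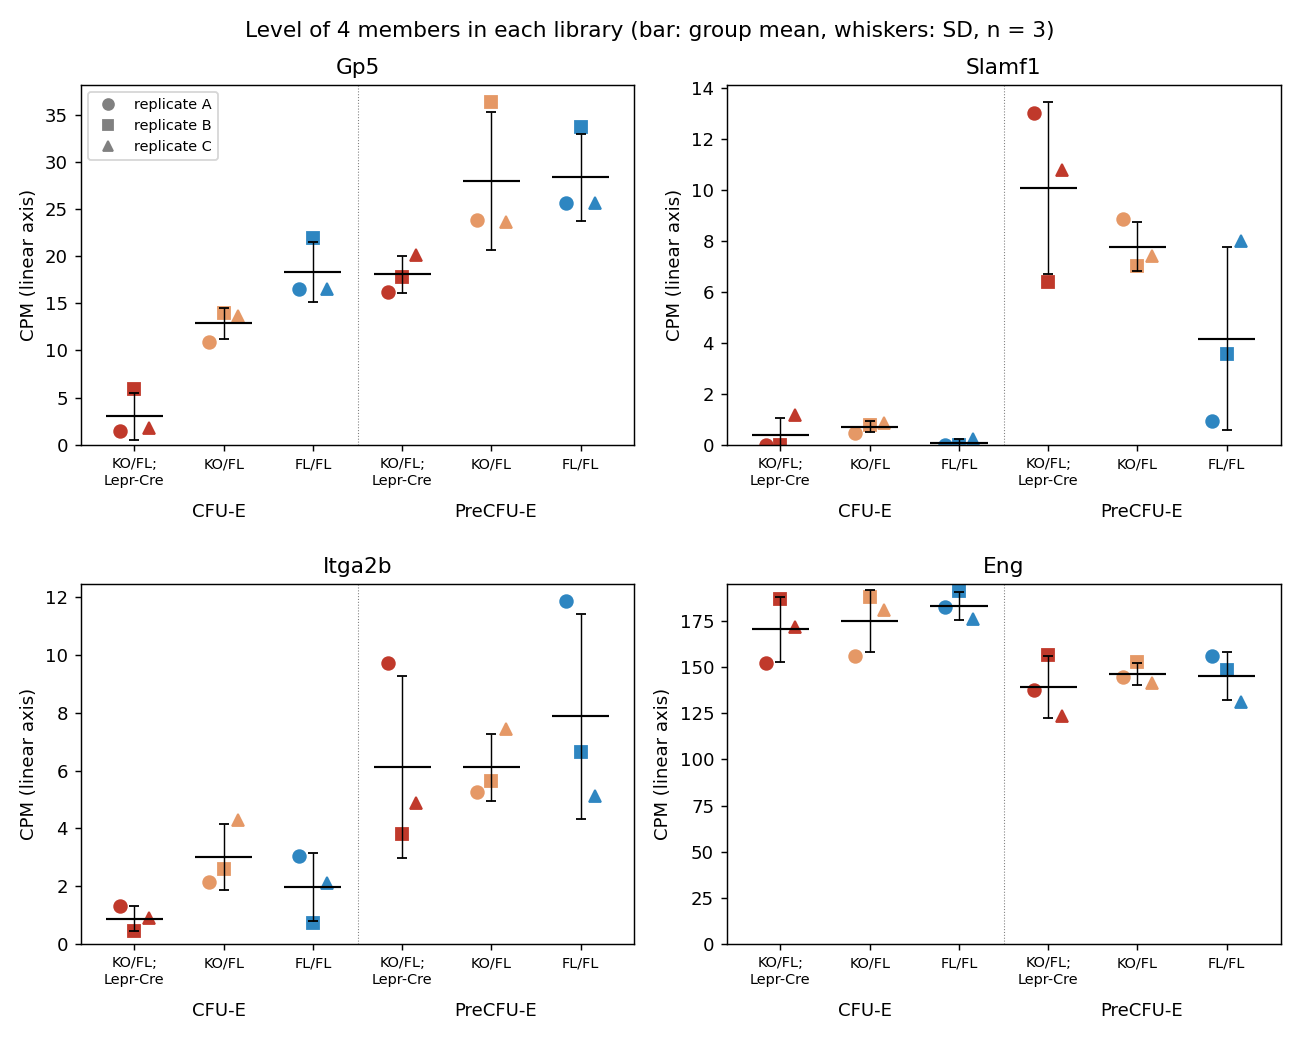
Level in CPM of Gp5, Slamf1, Itga2b and Eng in each of the 18 libraries (linear axes from 0), with CFU-E on the left and PreCFU-E on the right of each panel, the replicate letter as the symbol, and bars and whiskers for the mean and SD of 3 libraries. Gp5 lies at 1.42 to 5.86 CPM in Lepr-Cre CFU-E and at 10.9 to 36.3 CPM in the other 5 groups, while Slamf1 and Itga2b are mainly PreCFU-E signals and Eng is present throughout.

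Since each mouse gave both populations, Gp5 could also be compared within mice. Its CFU-E level was 8.77%, 32.9% and 8.70% of the PreCFU-E level in Lepr-Cre mice A, B and C, 46%, 38.5% and 57.7% in KO/FL mice and 64.5%, 65.1% and 64.2% in FL/FL mice. It was lower in CFU-E in 9 of 9 mice. Gp5 fell in CFU-E against PreCFU-E of Lepr-Cre mice (log2 fold change -2.61, SE 0.36, adjusted p = 1.32e-05) and of KO/FL mice (-1.12, SE 0.31, adjusted p = 0.0133), and it did not pass the threshold in FL/FL mice (-0.63, SE 0.31, adjusted p = 0.168, edgeR's quasi-likelihood test on all 18 libraries). This fit did not use the pairing by mouse. With the mouse as a block, each of these results for Gp5 stayed on the same side of the threshold. Gp5 was the member called of the 2 platelet genes tested, Gp5 and Gp9, where 7.25%, 14.1% and 18.3% of all genes were called in Lepr-Cre, KO/FL and FL/FL mice, and 4.25%, 7.18% and 9.3% were called lower in them. The KO/FL call was lost without the B PreCFU-E library (adjusted p = 0.117) or the A CFU-E library (adjusted p = 0.0678) of that genotype, and without the Lepr-Cre B CFU-E library the Lepr-Cre value was -3.51 (adjusted p = 3.30e-07, edgeR).

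Whether the genotype difference in Gp5 was itself larger in CFU-E than in PreCFU-E was tested as an interaction. For Lepr-Cre against FL/FL the difference of log2 fold changes was -1.98 (SE 0.47), and its adjusted p of 0.0530 in edgeR's test stood just above the threshold, which 0.354% of tested genes passed. With the mouse as a block, which the design supports because both libraries came from the same animal, it was -2.10 with an adjusted p of 0.00197 in edgeR's test, in a fit that called 198 genes against 38 without the block. Without the Lepr-Cre B CFU-E library and without the block it was -2.88 (adjusted p = 0.000801, edgeR). For Lepr-Cre against KO/FL the difference was -1.48 (SE 0.47, adjusted p = 0.498), with the mouse as a block -1.64 (adjusted p = 0.0673), and without that library and the block -2.38 (adjusted p = 0.0313, edgeR). Without the block edgeR called no gene in that interaction, where 569 had an unadjusted p under 0.05. With the mouse as a block it called 61, and DESeq2 called 23.

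**Figure D3:**
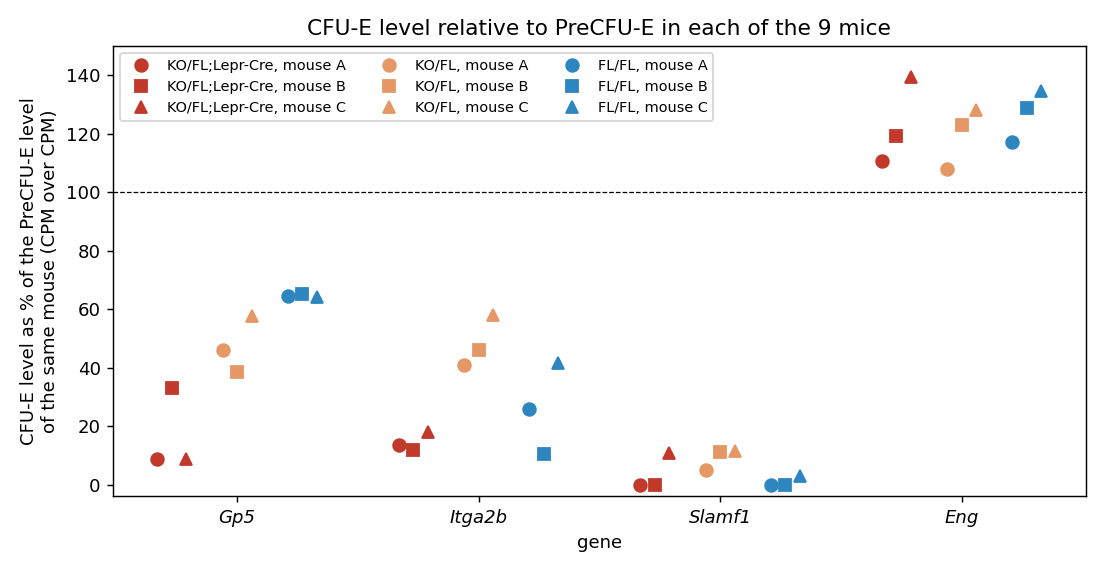
CFU-E level as a percentage of the PreCFU-E level of the same mouse for Gp5, Itga2b, Slamf1 and Eng (CPM over CPM, 9 mice, symbol by replicate letter), with a dashed line at 100%. Gp5 lies at 64.2% to 65.1% in FL/FL mice and at 8.70% to 32.9% in Lepr-Cre mice, Itga2b and Slamf1 lie below the line in all 9 mice, and Eng lies above it in all 9.

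The Gp5 gene lies on mouse chromosome 16 (GRCm38, 30307685 to 30310779, minus strand, with 2197 exon bases). Atp13a3 ends 1643 bases upstream of it on the same strand. Atp13a3, which encodes a polyamine-transporting ATPase, averaged 670 ± 81.5 CPM in Lepr-Cre, 646 ± 48.8 CPM in KO/FL and 614 ± 26.5 CPM in FL/FL CFU-E (SD, n = 3), and was not called in any genotype comparison. Its log2 fold change in Lepr-Cre against FL/FL CFU-E was 0.14 (SE 0.11), opposite in sign to that of Gp5. Whether reads from its transcript contributed to the Gp5 counts was not tested.

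The 250 bases upstream of the start of 4 megakaryocyte genes are shown next, because these genes of 1 lineage had widely different levels in the same libraries. They are from RefSeq on GRCm38.p6, given from 5′ to 3′ on the gene's own strand, with capitals for GATAA (the core bound by GATA factors) and AGGAAG (a core bound by ETS factors) or their reverse complements TTATC and CTTCCT.
Gp5, chr16:30310782-30311031, - strand: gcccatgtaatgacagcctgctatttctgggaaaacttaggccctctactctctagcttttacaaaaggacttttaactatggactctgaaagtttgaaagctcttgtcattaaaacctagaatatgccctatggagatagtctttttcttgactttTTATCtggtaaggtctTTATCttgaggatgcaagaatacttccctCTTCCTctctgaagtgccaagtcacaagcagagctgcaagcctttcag
Gp9, chr6:87777820-87778069, + strand: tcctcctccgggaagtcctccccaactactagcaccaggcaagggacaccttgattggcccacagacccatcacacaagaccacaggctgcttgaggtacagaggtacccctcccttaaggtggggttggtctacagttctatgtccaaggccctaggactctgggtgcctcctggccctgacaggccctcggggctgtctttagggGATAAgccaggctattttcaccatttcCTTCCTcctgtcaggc
Pf4, chr5:90772185-90772434, + strand: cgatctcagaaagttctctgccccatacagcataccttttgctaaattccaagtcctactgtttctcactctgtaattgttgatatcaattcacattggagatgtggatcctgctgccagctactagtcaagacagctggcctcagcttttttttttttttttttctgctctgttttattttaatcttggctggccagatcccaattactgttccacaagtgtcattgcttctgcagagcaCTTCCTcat
Itga2b, chr11:102469884-102470133, - strand: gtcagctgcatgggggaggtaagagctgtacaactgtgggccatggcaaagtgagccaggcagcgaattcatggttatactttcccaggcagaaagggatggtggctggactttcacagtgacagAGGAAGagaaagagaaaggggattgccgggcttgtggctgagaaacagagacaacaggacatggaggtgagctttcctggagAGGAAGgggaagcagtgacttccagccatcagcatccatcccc
The Gp5 window held GATAA 2 times on the opposite strand, 73 to 77 and 89 to 93 bases before the start, and AGGAAG 1 time on the opposite strand, 43 to 48 bases before it. The Gp9 window held each motif 1 time, the Pf4 window AGGAAG alone and the Itga2b window AGGAAG 2 times, and no match overlapped another. The window of Gp1bb, the remaining platelet gene, is not shown and held neither motif. Among 32536 windows of the same length, 22.5% held GATAA on either strand, 4.18% held it at least 2 times, 29.6% held AGGAAG and 6.57% held both. These matches describe the letters only, and no binding was measured.

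Gp9, the small subunit that associates with glycoprotein Ib, was counted at a low level in 17 of 18 libraries. It had 0.236, 5.41 and 0.730 CPM in Lepr-Cre, 0.451, 0.339 and 2.58 CPM in KO/FL and 0.899, 1.99 and 1.41 CPM in FL/FL CFU-E. The groups overlapped, and the Lepr-Cre B library alone, with 36 counts, held 24.5% of all 147 Gp9 counts of the series. Its log2 fold change in Lepr-Cre against FL/FL CFU-E was 0.55 (SE 1.07, adjusted p = 0.846, edgeR), and without that library it was -1.58. In PreCFU-E it had 0 to 14 counts per library and did not pass the filter. Between populations it was higher in CFU-E in 7 of 9 mice, but no stage comparison passed the threshold (log2 fold changes 1.38, 0.43 and 1.65 in Lepr-Cre, KO/FL and FL/FL mice, SE 1.2, 1.24 and 1.25, adjusted p = 0.579, 0.876 and 0.412, edgeR).

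Pf4 and Gp1bb were at the limit of detection. Pf4 had 15 counts in the whole series, at most 3 in a library, and none in 11 of 18 libraries. Its neighbour Ppbp, which encodes another platelet chemokine and lies 2371 bases away, had no count in any library. Gp1bb had 4 counts, all in the Lepr-Cre A PreCFU-E library, and none in the other 17. In the GENCODE M21 annotation 1902 of its 2087 exon bases also belong to Sept5 on the same strand, and Sept5 itself had a mean of at most 0.274 CPM in any group, so reads shared by both genes may have been left uncounted. A count of 0 in the 3 libraries of a group allows a level of up to 0.121 to 0.170 CPM over the group, depending on its depth.

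**Figure D4:**
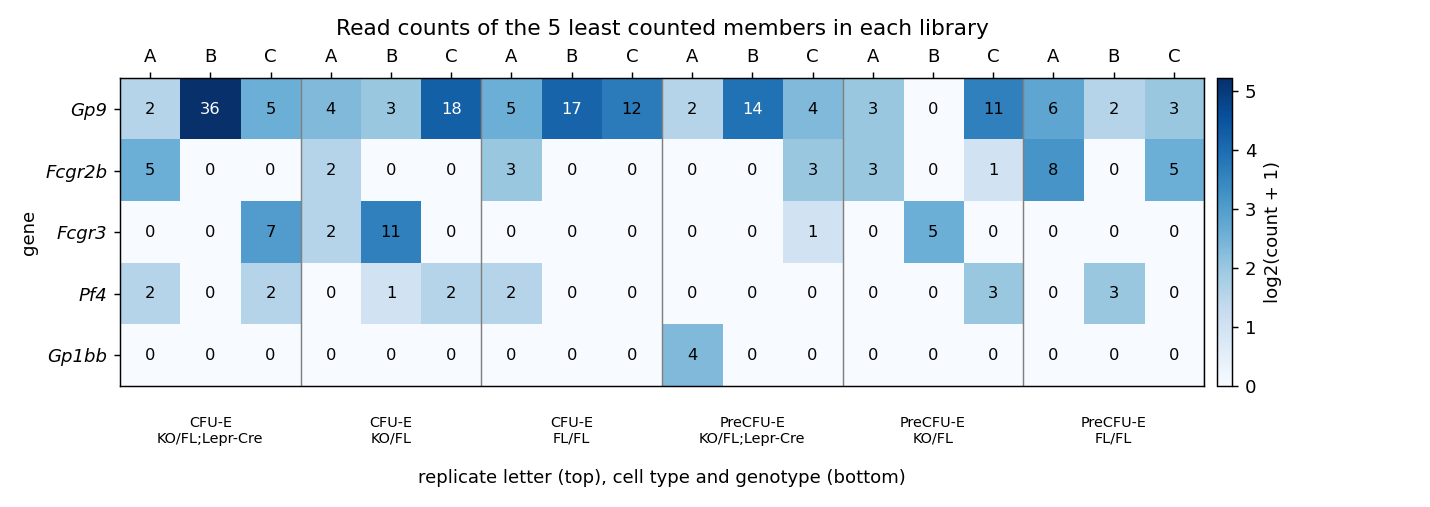
Read counts of Gp9, Fcgr2b, Fcgr3, Pf4 and Gp1bb in each of the 18 libraries, coloured by log2(count + 1), with CFU-E groups left of PreCFU-E groups. Gp9 reaches 36 counts in Lepr-Cre B CFU-E, Fcgr3 reaches 11 in KO/FL B CFU-E, and most cells of the other rows hold 0.

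Among the sort genes, Slamf1 (CD150, a homophilic receptor of the SLAM family) had the largest log2 fold differences between populations of the 5 tested members, at -4.68, -3.45 and -5.32 in CFU-E against PreCFU-E of Lepr-Cre, KO/FL and FL/FL mice. In PreCFU-E it had 13, 6.39 and 10.8 CPM in Lepr-Cre, 8.84, 7.02 and 7.42 CPM in KO/FL and 0.930, 3.55 and 8 CPM in FL/FL mice A, B and C. The genotypes overlapped, and the FL/FL libraries were the most spread. In CFU-E it had 0, 0 and 8 counts in Lepr-Cre, 4, 7 and 6 in KO/FL and 0, 0 and 2 in FL/FL libraries. Summed counts were 8 in CFU-E and 236 in PreCFU-E of Lepr-Cre mice, 17 and 133 in KO/FL mice and 2 and 91 in FL/FL mice. Scaled by library totals, the CFU-E level was 27.1-fold lower in Lepr-Cre (95% interval of counting error 13.6 to 63.6), 11.2-fold lower in KO/FL (6.76 to 19.9) and 44.5-fold lower in FL/FL mice (12 to 373). It was lower in CFU-E in 9 of 9 mice. The PreCFU-E library with the least Slamf1, FL/FL A at 0.930 CPM, was also the one with the most Itga2b, and the CFU-E library with the most, Lepr-Cre C at 1.17 CPM, lay above it.

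Between genotypes in PreCFU-E, Slamf1 averaged 10.1 ± 3.37 CPM in Lepr-Cre, 7.76 ± 0.958 CPM in KO/FL and 4.16 ± 3.58 CPM in FL/FL mice (SD, n = 3). The log2 fold change of Lepr-Cre against FL/FL was 1.29 (SE 0.53) and did not pass the threshold (adjusted p = 0.166, edgeR's quasi-likelihood test). It passed in the fit blocked on mouse letter (1.42, adjusted p = 0.0427) and without FL/FL C (2.20, adjusted p = 0.0285), and was 0.80 without FL/FL A (adjusted p = 0.441, edgeR). The value for Lepr-Cre against KO/FL was 0.38 (SE 0.52, adjusted p = 0.832) and that for KO/FL against FL/FL 0.91 (SE 0.54, adjusted p = 1, edgeR). In CFU-E the gene did not pass the filter.

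Eng encodes endoglin (CD105), a co-receptor for ligands of the transforming growth factor beta (TGF-beta) family. In CFU-E it had 152, 187 and 172 CPM in Lepr-Cre, 156, 188 and 181 CPM in KO/FL and 183, 191 and 176 CPM in FL/FL mice. In PreCFU-E it had 138, 157 and 123 CPM in Lepr-Cre, 145, 153 and 141 CPM in KO/FL and 156, 149 and 131 CPM in FL/FL mice. The genotypes overlapped in both populations, and its 6 log2 fold changes between genotypes lay from -0.09 to 0.01, each with an SE of 0.11 to 0.12 and none called (lowest adjusted p = 0.741, edgeR). With 523 to 1663 counts per library it was the best measured member. Its CFU-E level was above the PreCFU-E level in 9 of 9 mice, at 108% to 139% of it. Over 61 bases its exons overlap those of Fpgs on the opposite strand, which averaged 136 to 157 CPM in the 6 groups, and no source used here gives the strand setting of the counting.

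Itga2b encodes integrin alpha IIb (CD41). In CFU-E it had 1.30, 0.451 and 0.876 CPM in Lepr-Cre, 2.14, 2.60 and 4.30 CPM in KO/FL and 3.05, 0.704 and 2.12 CPM in FL/FL mice. The Lepr-Cre libraries, with 3 to 11 counts, overlapped the FL/FL libraries. They lay below all KO/FL libraries, and 17.2% of tested genes had groups that did not overlap in that comparison. The log2 fold change was -1.74 (SE 0.88, adjusted p = 0.440) against KO/FL and -1.10 (SE 0.89, adjusted p = 0.552) against FL/FL, neither called by edgeR's test. In PreCFU-E it had 9.72, 3.81 and 4.88 CPM in Lepr-Cre, 5.25, 5.64 and 7.42 CPM in KO/FL and 11.9, 6.65 and 5.11 CPM in FL/FL mice, with all groups overlapping and no call (lowest adjusted p = 0.725, edgeR). Its CFU-E level was 11.8% to 18% of the PreCFU-E level of the same mouse in Lepr-Cre, 40.8% to 57.9% in KO/FL and 10.6% to 41.5% in FL/FL mice.

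Fcgr3 and Fcgr2b encode Fc gamma receptors that the CD16/32 antibody recognises, an activating and an inhibitory one. Fcgr3 had 26 counts in all, in 5 of 18 libraries, with 7 in Lepr-Cre C, 2 in KO/FL A and 11 in KO/FL B CFU-E, and 1 in Lepr-Cre C and 5 in KO/FL B PreCFU-E. No FL/FL library held a count. Fcgr2b had 30 counts in 8 of 18 libraries, at most 8 in one. Neither passed the filter, and no comparison was made at this depth. The transcripts of both are partly identical: of the distinct 50-base words in Fcgr3 transcripts, 9.58% also occur in those of Fcgr2b, so reads from these stretches cannot be assigned. Also, 155 exon bases of Fcgr2b overlap the antisense gene Gm38204. Markers of the granulocyte and monocyte lineage, which carries CD16/32, were summed over 19 genes in CFU-E. The sums were 2.40 to 4.25 CPM in Lepr-Cre, 2.29 to 4.4 CPM in KO/FL and 2.81 to 4.49 CPM in FL/FL mice. Elane and Ctsg were at 0 in all 18 libraries, while Cebpa, Prtn3 and Cd68 were counted and tested. In Lepr-Cre mice Cebpa averaged 0.168 ± 0.178 CPM in CFU-E and 2.16 ± 0.624 CPM in PreCFU-E, and Prtn3 1.54 ± 0.430 and 0.669 ± 0.154 CPM. None of these 3 genes was called between populations in any genotype, beside 7.25%, 14.1% and 18.3% of all tested genes in Lepr-Cre, KO/FL and FL/FL mice.

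**Figure D5:**
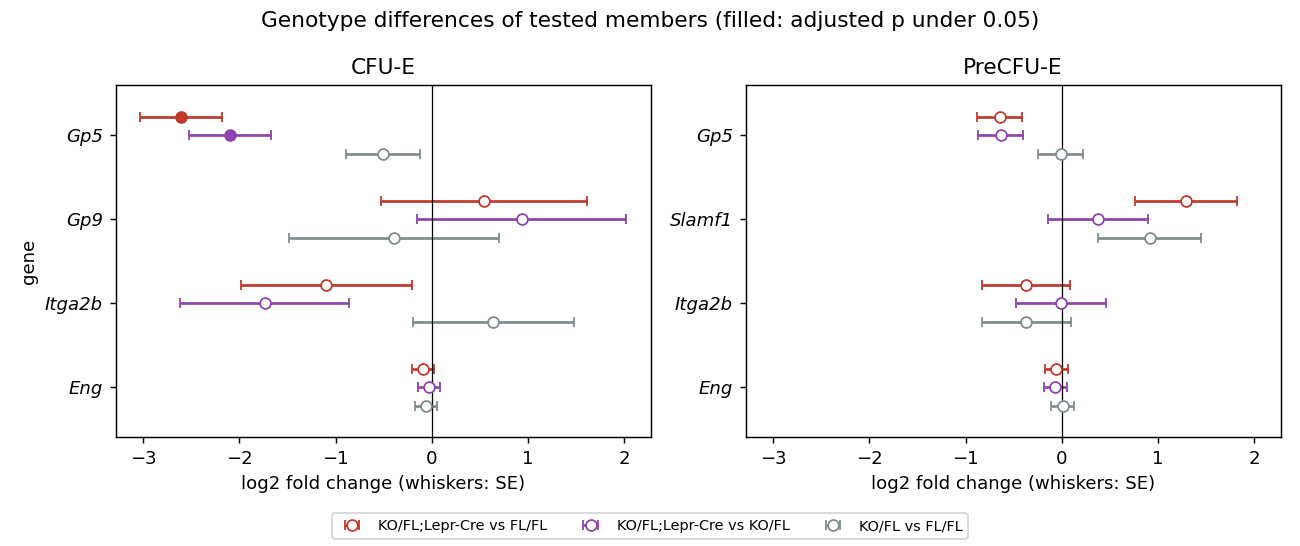
Log2 fold changes between genotypes of the tested members, with whiskers for the SE, in CFU-E on the left and PreCFU-E on the right. Filled points passed an adjusted p of 0.05 in edgeR's test. The filled points are Gp5 in Lepr-Cre CFU-E at -2.61 against FL/FL and -2.10 against KO/FL, and Eng lies within 0.1 of 0 in every comparison.

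No member was called in KO/FL against FL/FL mice in either population, where 0% of all tested genes were called by edgeR. In CFU-E 210 of 10192 genes had an unadjusted p under 0.05 and DESeq2 called 1 gene, and in PreCFU-E 350 of 10309 genes had such a p and DESeq2 called 5. In CFU-E, Gp5 and the untested Slamf1 had KO/FL libraries that did not overlap the FL/FL libraries, lower for Gp5 and higher for Slamf1, as did 8.14% of tested genes. In PreCFU-E no tested member had such groups, against 9.03% of tested genes.

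Of 34 other megakaryocyte and platelet genes 9 were tested in CFU-E. In Lepr-Cre against FL/FL 1 rose, Tbxas1 (thromboxane synthase), and none fell, where 4.83% of all tested genes were called. The median log2 fold change was 0.05, beside 0.00 for all tested genes. Tbxas1 averaged 4.78 ± 0.564 CPM in Lepr-Cre and 0.240 ± 0.415 CPM in FL/FL CFU-E (adjusted p = 0.0229, edgeR). In PreCFU-E 13 were tested, none rose and 1 fell, Plek (pleckstrin, a substrate of protein kinase C in platelets), with 0.300 ± 0.519 CPM in Lepr-Cre and 5.65 ± 1.05 CPM in FL/FL mice (adjusted p = 0.0266, edgeR). There 6.13% of all tested genes were called, and the median of the list was -0.41. The summed level of the 34 genes was 241 to 262 CPM in Lepr-Cre, 235 to 236 CPM in KO/FL and 228 to 276 CPM in FL/FL CFU-E, so the groups overlapped. Such a sum follows its highest genes and says little of the others. In PreCFU-E, Stxbp5 alone averaged 148 ± 12.9 CPM in Lepr-Cre and 138 ± 14.7 CPM in FL/FL mice. Gp6, Ppbp, P2ry12 and Ly6g6f were among the genes without a count in most groups. Vwf, the ligand of the glycoprotein Ib complex, averaged 38.7 ± 8.84 CPM in Lepr-Cre and 37.9 ± 7.64 CPM in FL/FL CFU-E (log2 fold change 0.05, SE 0.21, adjusted p = 0.935, edgeR).

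In CFU-E against PreCFU-E, 1 of 14 tested genes of this list rose and none fell in Lepr-Cre mice, none rose and 7 fell in KO/FL mice, and 1 rose and 5 fell in FL/FL mice, with medians of -0.53, -1.69 and -1.89. Of all tested genes 7.25%, 14.1% and 18.3% were called in these comparisons. In the interactions that test the differences between genotypes, edgeR called none of the 14. In FL/FL mice Cd9, a tetraspanin, averaged 0.412 ± 0.268 CPM in CFU-E and 7.90 ± 0.811 CPM in PreCFU-E (adjusted p = 5.72e-05), and Nbeal2, needed for alpha granules, averaged 4.63 ± 0.162 CPM in CFU-E and 19.1 ± 3.95 CPM in PreCFU-E (adjusted p = 7.24e-05, edgeR). Vwf rose in CFU-E against PreCFU-E of Lepr-Cre mice (38.7 ± 8.84 and 23.9 ± 1.47 CPM, log2 fold change 0.69, adjusted p = 0.0397) and of FL/FL mice (37.9 ± 7.64 and 23.5 ± 3.65 CPM, 0.68, adjusted p = 0.0215). In KO/FL mice it was not called (28.1 ± 1.39 and 21.9 ± 3.35 CPM, 0.37, adjusted p = 0.278, edgeR).

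Of 16 megakaryocyte transcription factors 15 were tested. In Lepr-Cre against FL/FL PreCFU-E 1 rose and 2 fell: Gata2, a factor of early progenitors, averaged 56.7 ± 12.7 CPM in Lepr-Cre and 184 ± 13 CPM in FL/FL mice (log2 fold change -1.70, SE 0.14, adjusted p = 7.43e-08), Nfe2 68.6 ± 11.4 and 123 ± 8.81 CPM (adjusted p = 0.00192) and Tal1 432 ± 25.2 and 311 ± 36.6 CPM (adjusted p = 0.00838, edgeR). In Lepr-Cre against FL/FL CFU-E 1 rose and none fell, so that 3 of 15 were called in PreCFU-E and 1 of 15 in CFU-E, beside 6.13% and 4.83% of all tested genes. The one that rose was Mef2c, at 26.4 ± 4.16 CPM in Lepr-Cre and 6.32 ± 2.09 CPM in FL/FL CFU-E (log2 fold change 2.10, SE 0.32, adjusted p = 0.000358, edgeR). Gata1, which binds the GATAA core, averaged 252 ± 47.8 CPM in Lepr-Cre and 223 ± 25.6 CPM in FL/FL CFU-E (log2 fold change 0.19, SE 0.13, adjusted p = 0.485, edgeR). In CFU-E against PreCFU-E, 5 fell in Lepr-Cre, 7 in KO/FL and 7 in FL/FL mice, and 1, 2 and 1 rose, beside 7.25%, 14.1% and 18.3% of all tested genes called. Fli1, an ETS factor of megakaryocytes, averaged 7.92 ± 3.15 CPM in CFU-E and 32.6 ± 12.9 CPM in PreCFU-E of Lepr-Cre mice and 4.12 ± 1.34 and 39.7 ± 1.26 CPM in those of FL/FL mice (adjusted p = 0.000221 and 1.50e-07, edgeR).

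Among 11 genes of the SLAM family and its adaptors, the family of Slamf1, 4 were tested. Ly9 (CD229) rose in Lepr-Cre against FL/FL mice in both populations, as 1 of 4 in each, where 4.83% of all tested genes were called in CFU-E and 6.13% in PreCFU-E. It averaged 8.88 ± 2.99 CPM in Lepr-Cre and 2.15 ± 0.755 CPM in FL/FL CFU-E (log2 fold change 2.07, SE 0.60, adjusted p = 0.0495), and 11.1 ± 0.846 and 3.67 ± 1.84 CPM in PreCFU-E (1.58, SE 0.46, adjusted p = 0.0438, edgeR). Cd48 averaged 12.4 ± 7.62 CPM in Lepr-Cre and 5.22 ± 2.72 CPM in FL/FL CFU-E and was not called (adjusted p = 0.192, edgeR). In CFU-E against PreCFU-E none of the 4 was called in Lepr-Cre mice, 2 fell in KO/FL and 3 in FL/FL mice, beside 7.25%, 14.1% and 18.3% of all tested genes called, and in the interactions between genotypes none of the 4 was called. Cd84 averaged 5.62 ± 1.04 CPM in CFU-E and 23.7 ± 0.705 CPM in PreCFU-E of FL/FL mice (adjusted p = 5.94e-05, edgeR).

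Of 23 receptors and targets of the TGF-beta and bone morphogenetic protein pathway 17 were tested in PreCFU-E, and in Lepr-Cre against FL/FL none rose and 3 fell, where 6.13% of all tested genes were called and 3.24% were called lower. Tgfbr2, the type II receptor, averaged 21.1 ± 4.13 CPM in Lepr-Cre and 44.4 ± 2.62 CPM in FL/FL PreCFU-E (log2 fold change -1.07, SE 0.21, adjusted p = 0.00224). Smad7, an inhibitory SMAD, averaged 7.55 ± 2.78 and 20.3 ± 2.96 CPM (-1.43, SE 0.32, adjusted p = 0.00716), and Skil, a repressor of SMAD targets, 13.1 ± 2.73 and 24.7 ± 4.50 CPM (-0.91, SE 0.25, adjusted p = 0.0316, edgeR). In CFU-E 15 were tested, none rose and 1 fell, a share near the 4.83% of all tested genes called. It was Ltbp1, which holds latent TGF-beta in the matrix and averaged 4.22 ± 3.72 CPM in Lepr-Cre and 22.4 ± 12.8 CPM in FL/FL mice (adjusted p = 0.0129, edgeR). In CFU-E against PreCFU-E 4, 5 and 6 of 18 fell in Lepr-Cre, KO/FL and FL/FL mice and none rose, beside 4.25%, 7.18% and 9.3% of all tested genes called lower. Among them was the co-receptor Tgfbr3, at 114 ± 17 CPM in CFU-E and 206 ± 10.4 CPM in PreCFU-E of Lepr-Cre mice (adjusted p = 1.78e-05, edgeR).

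Of 15 integrin genes 11 were tested. In Lepr-Cre against FL/FL CFU-E, where 2.75% of all tested genes were called lower, none rose and 3 fell: Itga5 (87.8 ± 3.67 and 153 ± 8.71 CPM, adjusted p = 0.000398) and Itga4 (543 ± 12.1 and 731 ± 45.2 CPM, adjusted p = 0.0259), the alpha chains of fibronectin receptors, and Itgb7 (1.15 ± 0.336 and 6.03 ± 0.815 CPM, adjusted p = 0.0248, edgeR). In PreCFU-E, where 6.13% of all tested genes were called, Itga5 and Itga4 fell and Itgb1 rose, at 460 ± 37.2 CPM in Lepr-Cre and 354 ± 21.1 CPM in FL/FL mice (adjusted p = 0.0323, edgeR). Itgb3, the partner of Itga2b, was not tested in either population and had no count in the 3 libraries of Lepr-Cre PreCFU-E or of FL/FL CFU-E.

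Among 14 genes of the Fc receptor family and its signalling, none of the 6 tested was called between genotypes in either population. So few genes say little at the shares of all tested genes called. These were 4.83% in CFU-E and 6.13% in PreCFU-E for Lepr-Cre against FL/FL, and 1.01% and 2.18% against KO/FL. For KO/FL against FL/FL they were 0% in both. In CFU-E against PreCFU-E 4 of 8 fell in Lepr-Cre mice, 4 in KO/FL mice and 5 in FL/FL mice, and none rose, beside 4.25%, 7.18% and 9.3% of all tested genes called lower. Syk, a kinase recruited by activating Fc receptors, averaged 37.4 ± 11.2 CPM in CFU-E and 72.7 ± 14.5 CPM in PreCFU-E of Lepr-Cre mice (adjusted p = 0.00388), and 25.8 ± 5.18 and 95.9 ± 11.6 CPM in those of FL/FL mice (adjusted p = 1.50e-07, edgeR).

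Marker lists of other cells were set beside the fall of Gp5 in Lepr-Cre CFU-E. The summed level of 10 endothelial genes was 7.01 to 13.1 CPM in Lepr-Cre and 26 to 34 CPM in FL/FL CFU-E, in which Plvap fell (7.48 ± 3.19 and 27.5 ± 3.30 CPM, adjusted p = 0.00102, edgeR) and Robo4, Cldn5 and Ramp2 had no count in either group. The sum of 10 mast cell and basophil genes was 69.7 to 93.5 CPM in Lepr-Cre and 120 to 174 CPM in FL/FL CFU-E, in which Il1rl1 fell (73.0 ± 10.4 and 134 ± 23.8 CPM, adjusted p = 0.00111, edgeR) and Gzmb, Cma1, Tpsab1, Tpsb2, Mcpt8 and Prss34 had no count. The sum of 12 early progenitor genes was 780 to 916 CPM in Lepr-Cre and 1251 to 1378 CPM in FL/FL CFU-E, in which Myb and Mn1 fell. Most of these 3 sums came from Plvap, from Il1rl1, and from Myb and Lmo2. Pecam1 of the endothelial and Mitf of the mast cell list were tested and not called (log2 fold changes 0.17 and 0.04). Of 9 tested early progenitor genes 2 fell and none rose, beside 2.75% of all tested genes called lower. Hoxa9, Meis1 and Mecom had uncalled log2 fold changes above 0. Of 12 erythroid genes, 1 rose in Lepr-Cre against FL/FL CFU-E and none fell, beside 4.83% of all tested genes called. The part of these in the Gp5 result was not tested. Sums of 10 B cell genes (5.55 to 21.5 and 8.59 to 11.3 CPM) and 10 macrophage genes (1.42 to 4.38 and 3.17 to 3.59 CPM) overlapped between Lepr-Cre and FL/FL CFU-E. The other sort-marker genes Ly6a (Sca1), Ly6g and Cd8a had no count in any library.

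The genes most like each tested member were taken by Pearson's r of log2 CPM (offset 0.5) over the 18 libraries, among 8846 genes with a mean of at least 5 CPM. Groups and mice are shared by these libraries, so r is a description. They were Dapp1 (r = 0.918), Itgb7 (0.883) and Igf1r (0.880) for Gp5; Anxa5 (0.904), Acsl1 (0.901) and Ccbl2 (0.896) for Slamf1; Ppp1r15a (0.913), Cnnm2 (0.887) and Gypc (0.880) for Eng; and Dock10 (0.900), Xpc (0.893) and Trim14 (0.891) for Itga2b. For Gp9, whose counts were sparse, the highest r was 0.780, with Med30. No platelet gene was among the 3 most like any member. Gp9, Pf4 and Gp1bb lay under that mean and could not appear, so this absence does not show that platelet genes varied differently.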

How the data were processed

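Counts of RNA-seq reads per gene symbol in 18 mouse libraries were used as the authors deposited them, with no normalisation. Alignment used STAR 2.5.2b and the mm10 build and counting used HTSeq, per the submitters' processing notes. No source used here gives the annotation, the strand setting or the version of HTSeq. A stranded kit for small inputs was applied to 2 to 6 ng of total RNA, per the labels' protocols, whose headings also name a nuclear extraction. A second deposited table gives RPKM, for which the authors divided each gene by 1 length. It served in alternatives only, since those lengths did not match the genes.

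Genotypes were compared within each population (9 libraries), and populations within genotypes and interactions on all 18 libraries, with edgeR 4.0.16 in R 4.3.3: TMM scaling, a filterByExpr filter (counts of 10, totals of 15) and its quasi-likelihood test in robust mode, without a block. Adjusted p are two-sided Benjamini-Hochberg values over all tested genes, called under 0.05. Dividing a log2 fold change by the root of its F gave the SE. CPM used library totals times TMM factors of the 18 libraries. Intervals are exact at 95%. Total counts were 3541066 to 9389122 per library. The scripts were tested on simulated counts.

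Mice pair the populations by design, and deviations from group means correlated at 0.111 to 0.197 within mice. Replicate letters were taken to pair genotypes where all 3 correlations passed 0.1, which held for 5 of 6 pairs of groups (Lepr-Cre and FL/FL PreCFU-E 0.127 to 0.152) and not for Lepr-Cre and FL/FL CFU-E (0.0877 to 0.127). Chi-square over degrees of freedom between replicates was 7.75 to 18.9, so none was a copy of another. Alternatives were DESeq2 1.42.0 (test and size factors), no filter, limma 3.58.1 on log2(RPKM + 1) and log2(RPKM + 0.1), both blocks, 1 fit of all libraries, and leaving out each library. All 9 members are named, with up to 4 called genes by smallest p from each of 14 lists in each comparison and the 3 most correlated genes. Atp13a3 was added after the annotation was seen, and list genes named without a call, or for their absence (Vwf, Gata1, Cd48, Itgb3 and genes at 0), after their values were seen. The members and lists were chosen with earlier results of these data known. Positions are GENCODE M21; upstream sequences are RefSeq, matched by symbol for all 9 members.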

Additional observations from a re-analysis of the deposited data

How the results depend on the processing

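For single members, 762 alternatives were computed for 54 results: 733 kept direction and side of the threshold or were uncalled on both sides, 19 lost and 10 gained a call, none reversed a call, and 45 changed sign with neither value called. The fall of Gp5 in Lepr-Cre against FL/FL CFU-E passed in 13 of 13 alternatives, with log2 fold changes of -3.52 to -0.50; the smallest was limma on log2(RPKM + 1), where the pseudocount is large beside the low RPKM of Gp5. The count of called members in Lepr-Cre against FL/FL PreCFU-E was 0, but 2 with the replicate letter as a block (Gp5 and Slamf1) and 0 to 1 when 1 library was left out. In Lepr-Cre against KO/FL CFU-E it was 1, but 0 with limma on log2(RPKM + 1) and 0 on log2(RPKM + 0.1), and 0 to 1 when 1 library was left out. Between populations it was 1 in KO/FL mice (0 to 1 when 1 library was left out) and 0 in FL/FL mice (1 with limma on log2(RPKM + 1)). For the interaction of Lepr-Cre against FL/FL with population it was 0, but 1 with no filter, 1 with DESeq2, 1 with the mouse as a block and 0 to 1 when 1 library was left out, and against KO/FL it was 0, with 0 to 1 when 1 library was left out. The cause was not tested. The blocks changed no other call of a member between genotypes, nor that of Gp5 or Gp9 between populations.

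Counts over all genes moved by more than 1.5 times in the Lepr-Cre comparisons and interactions named here, and by less between populations of KO/FL and of FL/FL mice. In Lepr-Cre against FL/FL they were 632 in PreCFU-E (263 to 1586 over the settings that kept all libraries) and 492 in CFU-E (184 to 933). Against KO/FL they were 225 (59 to 840) and 103 (20 to 280). Between populations they were 778 (612 to 1322), 1510 (1461 to 2152) and 1963 (1881 to 2706) in Lepr-Cre, KO/FL and FL/FL mice, and for the interactions of Lepr-Cre mice 38 (16 to 198) and 0 (0 to 61). The highest of each range came from a block. KO/FL against FL/FL gave 0 in both populations, with at most 9. Pf4, Gp1bb, Fcgr3 and Fcgr2b had at most 11 counts in a library, and with 3 mice a group a p that misses the threshold does not show equality.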

Other observations

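In the deposited RPKM table each gene was divided by 1 length, and for all 9 members that length lay within 2 bases of the genomic span of another gene further down the alphabetical table. Gp5, with a span of 3095 bases, was divided by 33780, the span of Gp6, 1 row below. Gp9 was divided by the span of Gpa33, Gp1bb by that of Gp2, Eng by that of Enho, Fcgr3 by that of Fcgrt and Fcgr2b by that of Fcgr4. Over 15424 matched genes 3.63% of the lengths lay within 1% of the gene's own span, and 9.73%, 15.7%, 7.56% and 7.92% of them within 1% of the span of the gene 1, 2, 3 and 4 rows below. Levels between genes read from the RPKM values would therefore differ from those given here, while ratios between libraries for 1 gene would not.

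Gp5 was highest in the female B library in 5 of 6 groups, and Eng in 5 of 6 groups, whereas Itga2b was highest in A in 4 groups and Slamf1 in C in 4 groups. Sex and whatever else the letter stands for cannot be told apart, since each genotype had 1 female.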
